A study of Mus musculus with 30 samples.

Results

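The genes described here are 42 genes of the lysosome and of autophagy, taken as a list of symbols among 29861 genes listed for mouse tail fibroblasts treated with small molecules. They comprise 8 lysosomal proteases, 7 glycosidases, 2 lipid hydrolases, 2 other proteins of the lysosomal lumen, 6 lysosomal membrane proteins, 6 subunits of the lysosomal proton pump, 2 transcription factors that act on lysosomal genes, and 9 autophagy genes. All 42 were found in the table, and all 42 passed the filter on low values. The cells were CCG-HTA-1, a primary fibroblast line from the tails of UMHet3 mice, a genetically mixed stock. They were used at passage 4 and came from mice aged 5 to 8 weeks (8 to 11 weeks is written for 1 library, Dihydrorotenone replicate 1). Every group was grown in high-glucose medium without pyruvate with 10% serum and 10% CO2 at 37 °C, and every group received its addition 24 hours after plating at about 80% confluence and was harvested 48 hours later. The 8 compounds were Antimycin A, which blocks complex III of the respiratory chain, Dihydrorotenone, a blocker of complex I, Diphenyleneiodonium Cl, a blocker of flavoenzymes, Podofilox, which binds tubulin, and Cardamonin, BerberineA, Clofilium tosylate and AEG 3482, each with 3 libraries, and the control was the solvent DMSO with 6 libraries (the series text speaks of 5). Doses are not given in the sources used here. The p-values measure the spread between libraries of 1 cell line and not between animals.

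Lysosomes are acidic organelles in which proteases, glycosidases and lipid hydrolases break down material that arrives by endocytosis or by autophagy, the process that wraps cytoplasm in a membrane and delivers it to the lysosome. The proton pump of the lysosomal membrane, the V-ATPase, sets the acid pH that the hydrolases need. TFEB and TFE3 are related transcription factors that bind the CLEAR element, an extended E-box in the promoters of many lysosomal genes, and they are held in the cytoplasm when the kinase complex mTORC1 is active. In fibroblasts lysosomes also take part in collagen turnover, to which cathepsin K contributes.

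The values are TPM, a level per transcript length that is scaled to 1 total in every library, and the sequencing depth behind them is unknown. The 30 libraries summed to between 92.7% and 93.7% of 1000000 TPM, had between 12229 and 12700 genes at 1 TPM or more, and no pair was identical. All 10 fibroblast markers were present in every group (summed level 3848 to 12283 TPM). The lowest sums were those of the Cardamonin libraries, 3848 to 4877 TPM against 9888 to 11425 TPM in DMSO. Every library of Antimycin A (7757 to 8546 TPM), Clofilium tosylate, Podofilox, BerberineA and Diphenyleneiodonium Cl also lay below all DMSO libraries. Those of Dihydrorotenone and AEG 3482 reached into or above the DMSO range. By gene, however, 6 of the 10 markers were called lower and 2 higher in AEG 3482 (median log2 fold change -0.33, fit described below). Col3a1 had a mean of 4732 TPM there, beside 2726 TPM in DMSO. In Podofilox 7 were called lower and 1 higher, and in Dihydrorotenone 4 and 1. BerberineA, Clofilium tosylate and Diphenyleneiodonium Cl each had 5 lower and 1 higher. The part of these markers in the results below was not tested. The 11 macrophage markers summed to 148 to 205 TPM in DMSO and to no more than 118 TPM in any treated library. The sum was lowest in Antimycin A, at 41.2 to 56.1 TPM, and none of the 6 that passed the filter was called higher in any compound. Lyz2 made up most of the sum (mean 157 TPM in DMSO), followed by Adgre1 (10.4 TPM), Csf1r (2.98 TPM) and Tyrobp (2.61 TPM), and the other 7 had DMSO means of 1.24 TPM or less. The part of macrophages, a lysosome-rich cell type, in the results below was not tested. Summed levels of osteoclast, keratinocyte and endothelial markers were at most 7.29, 2.88 and 8.71 TPM in any library. In bulk RNA a lower share of a cell type and less RNA per cell cannot be told apart. The library numbers of each compound run in sequence and do not mix with those of DMSO, so handling order and compound cannot be told apart.

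In DMSO the 42 genes together made up 1.83% of all listed TPM (17127 ± 523 TPM, SD, n = 6). The proteases carried 6286 ± 287 TPM of that sum, the membrane proteins 3410.3 ± 151 TPM, and the autophagy genes 2693 ± 106 TPM. The highest single levels were those of Ctsd, which encodes the aspartic protease cathepsin D (1989 ± 40.9 TPM), of Psap, the precursor of the saposins that present lipids to hydrolases (1935 ± 64.6 TPM), and of Cd63, a tetraspanin of late endosomes (1649 ± 141 TPM). The lowest were Tfeb at 6.26 ± 0.651 TPM, the alpha-galactosidase gene Gla at 24.3 ± 3.16 TPM, and Neu1, a sialidase, at 24.9 ± 1.75 TPM. Summed over the 42 genes, the Cardamonin libraries reached 24016 to 25779.9 TPM (2.67% of listed TPM) and those of Antimycin A 20037 to 20744 TPM (2.19%), both above all 6 DMSO libraries (16394 to 17905 TPM).

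Each compound was compared with DMSO in a limma fit of log2(TPM + 1) across the 13644 genes that reached 1 TPM in 3 libraries or more. A gene was called at a Benjamini-Hochberg adjusted p below 0.05. All log2 fold changes below are on this scale, are given ± SE where an error follows, and come from that fit. The 8 comparisons share the same 6 DMSO libraries, so they are not independent of each other. In every compound more of these genes rose than fell. With Antimycin A 32 of 42 rose and 3 fell, where 21.8% of all genes tested were higher and 15.5% lower. In the same comparison 8 of the 10 fibroblast markers fell and 1 rose (median -0.50), and their part in the result was not tested. Under BerberineA 28 of 42 rose and 2 fell, beside 12.6% and 9.16% of all genes, and under Diphenyleneiodonium Cl 26 of 42 rose and 2 fell, beside 14% and 11.7%. Clofilium tosylate gave 16 higher and 2 lower, beside 10.9% and 12.5% of all genes. Dihydrorotenone gave 16 higher and 1 lower, beside 4.95% and 9.43%. In these 5 compounds the share of the list that was higher ran from 38.1% to 76.2%, over 3 times the share of all genes tested in each.

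The other 3 compounds changed more of the transcriptome. Of all genes tested, 9587 were called in Cardamonin, 9287 in AEG 3482 and 6298 in Podofilox, beside 5089 in Antimycin A. The share of the list that rose lay closer to that of all genes. With Cardamonin 27 of 42 rose and 9 fell, or 64.3% and 21.4%, beside 37.3% of all genes higher and 33% lower. All 10 fibroblast markers fell there (median -1.34), and their part in the result was not tested. Podofilox gave 19 higher and 8 lower, beside 26.2% and 20%. AEG 3482 gave 23 higher and 8 lower (54.8% and 19.0%), beside 41.3% and 26.8%. This split moved to 17 higher and 15 lower when libraries were scaled by median ratios and to 18 higher and 13 lower under quantile normalization or without the 20 most abundant genes. The median log2 fold change of the list, with that of all genes tested after it, was 0.33 against 0.033 in Cardamonin, 0.24 against 0.032 in Antimycin A, 0.18 against 0.017 in Diphenyleneiodonium Cl, and 0.17 against 0.023 in BerberineA. It was 0.14 against 0.10 in AEG 3482, 0.11 against 0 in Clofilium tosylate, 0.11 against -0.033 in Dihydrorotenone and 0.10 against 0.036 in Podofilox. The AEG 3482 median came to 0.029 under median-ratio scaling, which also brought the median of all genes from 0.10 to 0.0018. By a moderated F test over the 8 compounds, 42 of the 42 genes varied with treatment, beside 86.3% of all genes tested. Of the 222 calls against DMSO, 161 held under all 18 alternative settings. The count higher in Dihydrorotenone was 10 when only its own libraries and those of DMSO were fitted. Some counts moved by more than 1.5 times when 1 library was left out. Dihydrorotenone had 9 higher without its replicate 2 and 10 without its replicate 3. It had none lower without its replicate 1, and 2 lower without DMSO replicate 6. The counts lower in Antimycin A and in Clofilium tosylate were each 1 without replicate 2 of that compound. Single calls were also lost, 9 of 30 in BerberineA without its replicate 3 and 6 of 18 in Clofilium tosylate without its replicate 2.

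**Figure D1:**
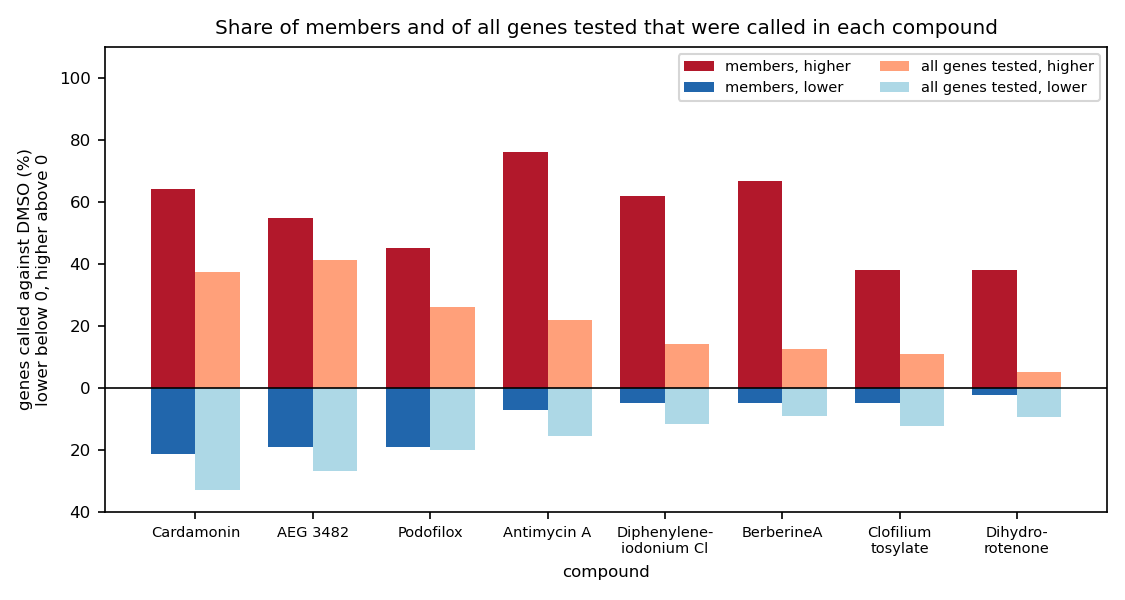
Percentage of the 42 lysosome and autophagy genes (dark bars) and of all genes tested (light bars) called higher (above 0) or lower (below 0) than DMSO in each compound, with 3 libraries per compound and 6 for DMSO. The dark bar above 0 is taller than the light one in every compound, from 76.2% against 21.8% in Antimycin A to 54.8% against 41.3% in AEG 3482.

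RefSeq promoter windows (GRCm38.p6, 250 bases before to 50 after a start) were found for 35 of the 42 genes. The core of the CLEAR element, TCACGTGA, which reads the same on both strands, occurred in 6 of the 35 (17.1%). It occurred in 6 of 93 other lysosome and autophagy genes with a window (6.45%) and in 1.12% of 27025 genes with a window. The shorter E-box CACGTG lies within every TCACGTGA and is also its own reverse complement. It occurred in 12 of the 35 (34.3%), in 18 of the 93 others (19.4%) and in 8.09% of all genes. TGACNNNGC, the core of the antioxidant response element, was searched on both strands. It occurred in 9 of the 35 (25.7%), in 14 of the 93 others (15.1%) and in 14.0% of all genes. These matches are a description of the letters in the windows, not of binding. The sites with TCACGTGA are shown because it is the core of the element that TFEB and TFE3 bind, each as 30 bases with the 8 matching bases in capitals.
Gla: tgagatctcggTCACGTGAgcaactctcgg
Gla: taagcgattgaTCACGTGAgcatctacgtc
Mcoln1: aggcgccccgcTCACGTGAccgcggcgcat
Ctsd: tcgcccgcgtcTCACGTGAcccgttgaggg
Ctsa: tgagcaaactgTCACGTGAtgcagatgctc
Ctsa: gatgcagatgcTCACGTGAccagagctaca
Atp6v1a: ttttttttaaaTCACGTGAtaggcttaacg
Atp6v0d1: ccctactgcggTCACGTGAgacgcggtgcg

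The sites of Gla lie at chrX:134601182-134601211 (minus strand) and chrX:134601215-134601244 (minus strand), with the motif starting 195 and 228 bases before the RefSeq start and before the gene in GENCODE M21. The site of Mcoln1 is chr8:3500462-3500491 (plus strand), 46 bases before the RefSeq start, and falls in an exon of a GENCODE transcript that starts further upstream. The same holds for that of Ctsd at chr7:142387908-142387937 (minus strand), 99 bases before its RefSeq start. The first Ctsa site, chr2:164833749-164833778 (plus strand), starts 13 bases before the RefSeq start and the second, chr2:164833766-164833795 (plus strand), starts just after it, both in GENCODE exons. The site of Atp6v1a at chr16:44139373-44139402 (minus strand) is 132 bases before the RefSeq start and in an intron of the GENCODE gene. That of Atp6v0d1 at chr8:105566050-105566079 (minus strand) is 4 bases before the start and before the GENCODE gene. In Cardamonin 5 of the 6 genes with this motif rose, Gla by 2.005, Mcoln1 by 0.999, Ctsd by 0.86, Atp6v1a by 0.77 and Atp6v0d1 by 0.35. Ctsa, with 2 sites, had a change of -0.075 ± 0.044 that was not called. Beside these 5 of 6 stand the 27 of 42 of the whole list and 37.3% of all genes that were higher in Cardamonin. Of genes with only CACGTG, Ctsf (-0.96), Glb1 (-0.90) and Gaa (-0.28) fell in Cardamonin, and Ctsl (0.72), Lamp1 (0.44) and Naglu (0.19) rose. In AEG 3482 4 of the 6 genes with TCACGTGA were called, all higher, and Ctsa (-0.073) and Atp6v0d1 (0.00031) were not. The whole list had 23 of 42 higher in AEG 3482, beside 41.3% of all genes. In Antimycin A Ctsd (0.0083) was the 1 gene of the 6 that was not called, and the others rose. The whole list had 32 of 42 higher in Antimycin A, beside 21.8% of all genes. A link between the motif and a rise was not tested.

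Among the 8 lysosomal proteases, 5 rose and 1 fell in Cardamonin, 4 rose and 2 fell in AEG 3482, and 3 rose and 2 fell in Podofilox. From 3 to 6 rose and none fell in each of the other 5 compounds. The shares were 62.5% higher and 12.5% lower in Cardamonin, beside 37.3% and 33% of all genes tested. AEG 3482 had 50% and 25%, beside 41.3% and 26.8%, and Podofilox 37.5% and 25%, beside 26.2% and 20%. In the other 5 the share higher ran from 37.5% to 75%, beside 4.95% to 21.8% of all genes. Ctsk, the gene of cathepsin K, a collagen-degrading protease (chromosome 3, 95499256 to 95509362, GRCm38, as for all gene positions here), changed in all 8 compounds. It lay from 405 to 582 TPM with a median of 467 TPM in the DMSO libraries. It lay at 988, 959 and 965 TPM in those of Antimycin A and 809.9, 796 and 912 TPM in those of Cardamonin. The 3 libraries of AEG 3482 read 371, 402 and 406 TPM. Every library of the 7 compounds with a rise lay above all DMSO libraries, and those of AEG 3482 lay around or below the lowest DMSO library, with 1 of them inside the DMSO range. The rise of Ctsk was 1.005 ± 0.080 with Antimycin A (limma adjusted p = 2.81e-10), 0.79 with Cardamonin and 0.70 with Podofilox. It was 0.66 with Clofilium tosylate, 0.62 with Diphenyleneiodonium Cl, 0.61 with BerberineA and 0.46 with Dihydrorotenone. With AEG 3482 Ctsk fell by 0.30 (SE 0.080, limma adjusted p = 0.00186). Of the 5 markers of osteoclasts, another cell type with high cathepsin K, Acp5 had means of 2.37 TPM in DMSO, 4.64 TPM in Antimycin A and 3.09 TPM in AEG 3482, was called in no compound, and the other 4 had means of 0.487 TPM or less. Atp6v0d2, a pump subunit abundant in osteoclasts, rose by 1.53 in Antimycin A and fell by 1.06 in AEG 3482. It also rose, by 0.73 to 1.29, with Podofilox, Clofilium tosylate, Diphenyleneiodonium Cl, BerberineA and Dihydrorotenone. The part of osteoclasts in the Ctsk result was not tested.

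Ctsd, the gene of cathepsin D (chromosome 7, 142375911 to 142388038), rose in 2 compounds. DMSO libraries held it from 1943 to 2045 TPM with a median of 1986 TPM, Cardamonin libraries at 3601, 3344 and 3905 TPM and AEG 3482 libraries at 2667, 2956 and 2772 TPM. The groups did not overlap, and the log2 fold changes were 0.86 ± 0.045 (limma adjusted p = 4.59e-15) and 0.49 ± 0.045 (adjusted p = 4.46e-10). In the other 6 compounds Ctsd stayed between -0.043 and 0.093, and none of these was called. Ctsl, which encodes the cysteine protease cathepsin L, rose with Cardamonin (0.72 ± 0.065) and Podofilox (0.54 ± 0.065) and in no other compound. Ctsd shares 33.2% of its 31-base stretches with other transcripts, most with Gm49369, and Ctsl 28.2% of its 31-base stretches with other transcripts, most with Gm47123, so the authors' counting could have divided their reads.

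Ctsf, the cathepsin F gene (chromosome 19, 4855130 to 4860918), fell in 3 compounds. Its Cardamonin libraries read 84.6, 86.6 and 74.0 TPM, those of AEG 3482 126, 129 and 122 TPM and those of Podofilox 136, 125 and 123 TPM. DMSO ranged from 155 to 163 TPM with a median of 159 TPM. All 9 of these treated libraries were below all DMSO libraries. Ctsf fell by 0.96 (SE 0.046, limma adjusted p = 8.12e-16) with Cardamonin, by 0.34 with AEG 3482 and by 0.32 with Podofilox, and rose by 0.17 with BerberineA, a call lost without BerberineA replicate 3. Tpp1, the gene of a tripeptidyl peptidase, rose in 7 compounds, by 0.58 with Cardamonin and by 0.37 with Diphenyleneiodonium Cl at the upper end, and had 0.060 with Podofilox. Ctsb, the cathepsin B gene, rose in 6 compounds by 0.14 to 0.37, and Ctsz, the gene of cathepsin Z, a carboxypeptidase, rose in 6 by 0.12 to 0.31 and fell by 0.25 with Podofilox. Ctsa, the gene of cathepsin A, a carboxypeptidase that also stabilises the sialidase Neu1, rose in 4 compounds by no more than 0.20. Of the 40 protease calls, 28 held under every alternative, and none of the 12 that did not was larger than 0.21 in size.

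The 7 glycosidases, which trim sugars from glycolipids and glycoproteins, split in opposite directions in Cardamonin (4 higher, 3 lower) and in Podofilox (3 and 3). AEG 3482 had 2 higher and 1 lower, and in each of the other 5 compounds 5 or 6 rose and at most 1 fell. The share higher in AEG 3482 was 28.6%, below the 41.3% of all genes tested, and the share lower was 14.3%, beside 26.8%. Cardamonin had 57.1% and 42.9%, beside 37.3% and 33%, and Podofilox 42.9% and 42.9%, beside 26.2% and 20%. In the other 5 the share higher was 71.4% or 85.7%, beside 4.95% to 21.8% of all genes. Gla, which encodes alpha-galactosidase A, the enzyme missing in Fabry disease (chromosome X, 134588149 to 134601125), was the one glycosidase called higher in all 8 compounds. Its DMSO libraries ranged from 21.6 to 30.0 TPM with a median of 23.8 TPM, and its Cardamonin libraries stood at 100.1, 91.4 and 109 TPM. Antimycin A libraries held 54.1, 48.8 and 48.5 TPM, those of Diphenyleneiodonium Cl 48.0, 41.0 and 41.1 TPM, and those of AEG 3482 25.0, 31.4 and 28.9 TPM. Cardamonin libraries were far above every other library, and the AEG 3482 libraries overlapped the DMSO range. The log2 fold changes of Gla were 2.005 ± 0.10 with Cardamonin (limma adjusted p = 1.17e-15), 1.03 ± 0.10 with Antimycin A, and 0.82 with Diphenyleneiodonium Cl. They were 0.78 with Podofilox, 0.72 with BerberineA, 0.62 with Clofilium tosylate, 0.43 with Dihydrorotenone and 0.22 with AEG 3482. The AEG 3482 call (adjusted p = 0.0475) was lost in 13 of 18 alternatives, and the other 7 held in all of them.

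Glb1, the beta-galactosidase gene (chromosome 9, 114401076 to 114474898), whose enzyme activity is the basis of a common senescence stain, fell in 3 compounds and rose in 5. DMSO libraries ranged from 131 to 145 TPM with a median of 141 TPM. Cardamonin libraries read 73.8, 79.4 and 69.1 TPM, Podofilox libraries 103, 96.5 and 97.9 TPM and AEG 3482 libraries 104, 103 and 95.6 TPM, and none of these 9 overlapped DMSO. Glb1 fell by 0.90 with Cardamonin (SE 0.045, limma adjusted p = 1.98e-15), by 0.49 with Podofilox and by 0.46 with AEG 3482. It rose by 0.39, 0.28, 0.23, 0.19 and 0.16 with Diphenyleneiodonium Cl, Antimycin A, BerberineA, Dihydrorotenone and Clofilium tosylate. The last of these was lost without Clofilium tosylate replicate 2 or 3 and under the replicate block. Gusb, the beta-glucuronidase gene, rose by 0.34 with Cardamonin and 0.26 with AEG 3482. It fell by 0.22 with Antimycin A, fell by 0.27 with Diphenyleneiodonium Cl, fell by 0.27 with BerberineA and fell by 0.24 with Clofilium tosylate. The Gusb calls in Antimycin A and in Clofilium tosylate were each lost without replicate 2 of that compound, and the call in AEG 3482 under quantile normalization.

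Naglu and Neu1 were called in the same 7 compounds, all higher, and AEG 3482 was the exception for both. Naglu encodes an enzyme of heparan sulfate breakdown, and its libraries read 227, 209 and 221 TPM with Antimycin A and 197, 209 and 213 TPM with Diphenyleneiodonium Cl. Its DMSO range ran from 127 to 145 TPM with a median of 133 TPM. Those of AEG 3482 held 138, 143 and 129 TPM, all within the DMSO range. Its rises were 0.71 ± 0.055 with Antimycin A (limma adjusted p = 1.75e-10), and 0.62, 0.56, 0.54 and 0.43 with Diphenyleneiodonium Cl, Clofilium tosylate, BerberineA and Dihydrorotenone. Podofilox and Cardamonin gave 0.22 and 0.19, of which the Cardamonin call was lost under quantile normalization. Neu1, the lysosomal sialidase gene, rose by 0.71 ± 0.076 with Antimycin A, by 0.63 with Diphenyleneiodonium Cl and by 0.32 with Cardamonin, and its 7 calls held in all alternatives. The AEG 3482 values were 0.031 for Naglu and 0.0091 for Neu1, neither called. Gaa, which encodes the enzyme that splits lysosomal glycogen, rose in the 5 compounds outside Cardamonin, AEG 3482 and Podofilox by 0.21 to 0.33, and fell by 0.28 with Cardamonin and by 0.24 with Podofilox. Hexa, a subunit of the beta-hexosaminidase that degrades gangliosides, fell by 0.30 with Podofilox and by 0.094 with Cardamonin, and rose by at most 0.16 in 4 compounds. Over the glycosidases, 37 of 49 calls held in every alternative, and the others were 0.26 or less in size.

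Of the 4 remaining lumen genes, Lipa and Asah1 encode lipid hydrolases, acid lipase and acid ceramidase. The AEG 3482 libraries held Lipa at 116, 109 and 105 TPM, and the DMSO libraries ranged from 69.2 to 77.2 TPM with a median of 73.3 TPM. None of the 3 overlapped DMSO, and the rise was 0.58 ± 0.041 (limma adjusted p = 5.12e-12). The other 2 Lipa calls, 0.11 with Cardamonin and 0.11 with Antimycin A, were lost in 4 and 12 of 18 alternatives. Asah1 rose by 0.34 with Antimycin A and by 0.30 with BerberineA, the second of these lost without BerberineA replicate 1, and was not called elsewhere. Psap, the saposin precursor, rose in 5 compounds, by 0.56 ± 0.045 with Cardamonin, 0.26 with AEG 3482, 0.22 with Podofilox, 0.15 with Diphenyleneiodonium Cl and 0.13 with Antimycin A. The 2 smallest of these were lost in some alternatives. Grn, which encodes progranulin, a lysosomal and secreted protein tied to neurodegeneration when deficient, differed in sign between compounds. DMSO libraries held Grn from 472 to 633 TPM with a median of 561 TPM. Its levels were 398, 393 and 420.2 TPM in Cardamonin libraries and 749, 857 and 827 TPM in those of Diphenyleneiodonium Cl, with no overlap of either with DMSO. It fell by 0.47 with Cardamonin and by 0.40 with Podofilox. It rose by 0.53 with Diphenyleneiodonium Cl, 0.43 with Antimycin A, 0.43 with BerberineA, 0.28 with Clofilium tosylate and 0.23 with Dihydrorotenone, the last 2 being lost in 2 and 8 of 18 alternatives. With AEG 3482 the value was -0.14, which was not called.

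Each of the 6 membrane genes rose in Antimycin A, Diphenyleneiodonium Cl and BerberineA, where 21.8%, 14% and 12.6% of all genes tested were higher. Dihydrorotenone had 3 higher (50%) and Clofilium tosylate 2 (33.3%), beside 4.95% and 10.9% of all genes, and none lower. Cardamonin and AEG 3482 each had 3 higher and 2 lower, and Podofilox 1 of each. The Cardamonin shares were 50% and 33.3%, beside 37.3% and 33% of all genes tested. AEG 3482 had the same shares, beside 41.3% and 26.8%, and Podofilox had 16.7% of each, beside 26.2% and 20%. Mcoln1 (chromosome 8, 3500457 to 3515232) encodes the calcium channel through which lysosomes release calcium. DMSO libraries ranged from 72.3 to 84.0 TPM with a median of 80.3 TPM for Mcoln1, and the libraries of Cardamonin read 162, 146 and 173 TPM and those of AEG 3482 138, 137 and 136 TPM. Both groups lay wholly above DMSO, at 0.999 ± 0.069 (limma adjusted p = 1.24e-12) and 0.77 ± 0.069 (adjusted p = 2.59e-10). Smaller rises were called with Antimycin A (0.28), BerberineA (0.28) and Diphenyleneiodonium Cl (0.25, lost without its replicate 3), and Podofilox, Clofilium tosylate and Dihydrorotenone gave 0.11, 0.17 and 0.080, not called. Lamp1, a heavily glycosylated protein that lines the lysosomal membrane, rose in every compound but Podofilox (-0.067, not called), from 0.15 with Dihydrorotenone to 0.44 with Cardamonin. Its relative Lamp2, which also serves chaperone-mediated autophagy, rose with Antimycin A (0.25), Diphenyleneiodonium Cl (0.19) and BerberineA (0.19). It fell by 0.14 with Podofilox and by 0.12 with Cardamonin. The first call was lost without Podofilox replicate 2, and the second was lost without Cardamonin replicate 3 and turned to 0.0056 by quantile normalization. Scarb2, the receptor that carries glucocerebrosidase to the lysosome, rose in the same 3 compounds by 0.24 to 0.34 and fell by 0.19 with AEG 3482. Cd63 rose in 6 compounds by no more than 0.32.

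Gpnmb (chromosome 6, 49036546 to 49070929), a transmembrane glycoprotein of lysosomes and melanosomes, changed in all 8 compounds, 6 higher and 2 lower. The DMSO libraries ranged from 108 to 120.5 TPM with a median of 115 TPM. Antimycin A libraries read 172, 167 and 162 TPM and those of Diphenyleneiodonium Cl 162, 172 and 181 TPM. Those of AEG 3482 read 76.5, 69.1 and 71.4 TPM and those of Cardamonin 85.5, 76.4 and 91.7 TPM. The first pair lay above and the second pair below every DMSO library. Gpnmb rose by 0.58 ± 0.056 with Diphenyleneiodonium Cl, 0.54 with Antimycin A, 0.51 with BerberineA, 0.30 with Dihydrorotenone, 0.27 with Clofilium tosylate and 0.25 with Podofilox. It fell by 0.66 with AEG 3482 (SE 0.056, limma adjusted p = 1.30e-10) and by 0.44 with Cardamonin, and these 8 calls all held in every alternative. The 6 melanocyte markers summed to 4.83 to 7.12 TPM in DMSO, 16.2 to 18.7 TPM in Antimycin A, 1.63 to 2.31 TPM in AEG 3482 and 1.33 to 1.85 TPM in Cardamonin. That sum moved with Mlana, which had means of 4.41 TPM in DMSO, 15.5 in Antimycin A, 0.356 in AEG 3482 and 0.426 in Cardamonin. Tyr, Dct and Tyrp1, the enzymes of pigment synthesis, had means of at most 0.0797 TPM in every group, and the part of these cells in the result was not tested. Over the membrane genes, 26 of 35 calls held in every alternative, and the others were 0.25 or less in size.

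**Figure D2:**
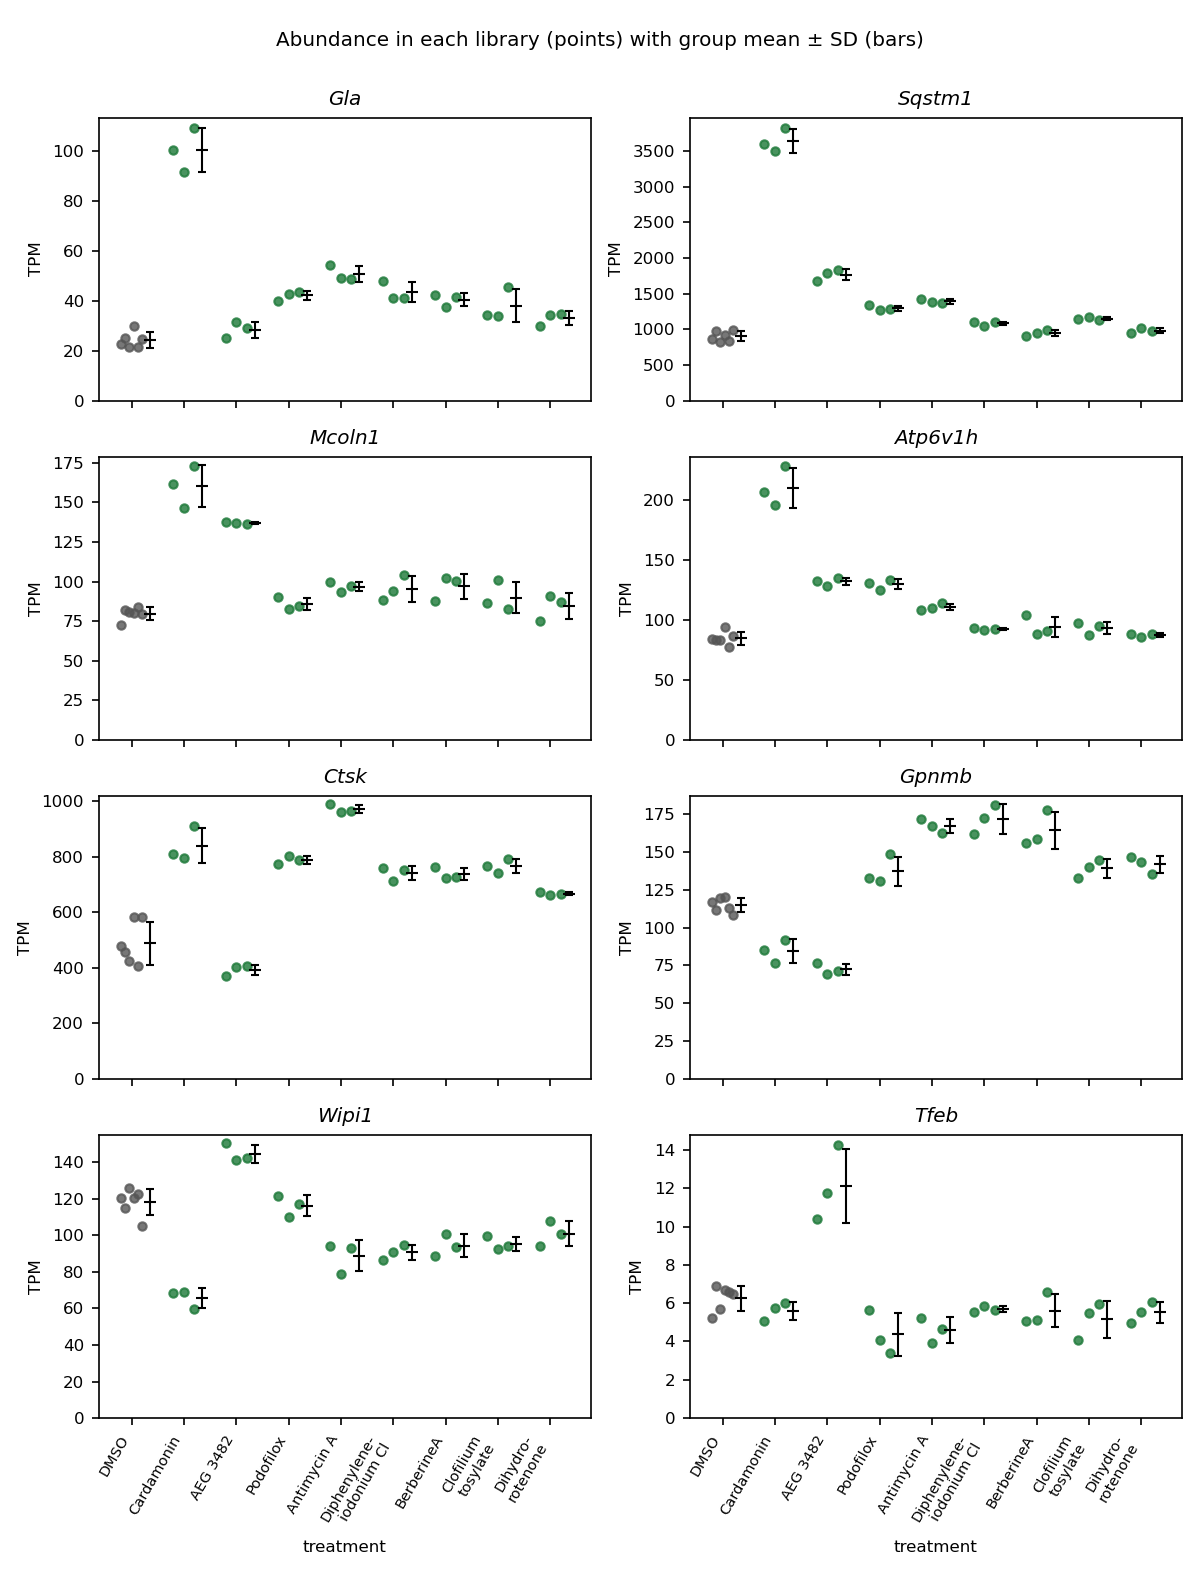
Level in TPM (vertical axes, linear and starting at 0) of 8 of the genes in each of the 30 libraries, with 6 DMSO libraries (grey points) and 3 per compound (green points), and the group mean ± SD beside the points. Gla and Sqstm1 are highest in Cardamonin, Mcoln1 and Atp6v1h are higher in Cardamonin and AEG 3482 than in DMSO, Ctsk and Gpnmb were called higher in 7 and 6 compounds, Wipi1 was called lower in 6, and Tfeb is above it in AEG 3482.

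All 6 genes of the proton pump rose in Cardamonin and in Antimycin A, beside 37.3% and 21.8% of all genes tested. In BerberineA and Podofilox 5 of the 6 rose, beside 12.6% and 26.2% of all genes, with none lower. Under Diphenyleneiodonium Cl 4 rose, under Clofilium tosylate 3 and under Dihydrorotenone 2, again with none lower, beside 14%, 10.9% and 4.95% higher. AEG 3482 had 3 higher and 1 lower of the 6 (50% and 16.7%), beside 41.3% and 26.8% of all genes tested. Their summed level was 647 to 732 TPM in DMSO, 1049 to 1159 TPM in Cardamonin, 839 to 869.7 TPM in Antimycin A and 842 to 851 TPM in AEG 3482. Atp6v1a (chromosome 16, 44085402 to 44139705), the subunit that carries the catalytic site for ATP, was called higher in all 8 compounds. The upper end was 0.77 ± 0.047 with Cardamonin and 0.66 ± 0.047 with AEG 3482. The lower was 0.15 with Clofilium tosylate and 0.15 with Dihydrorotenone, calls that were lost in 3 and 7 of 18 alternatives. Atp6v1h (chromosome 1, 5070018 to 5162529), a regulatory subunit, had the largest rise of the pump. It ranged from 77.7 to 93.9 TPM with a median of 83.7 TPM in DMSO. It stood at 206, 196 and 229 TPM in Cardamonin, 132, 129 and 135 TPM in AEG 3482 and 131, 125 and 133 TPM in Podofilox, all 9 above DMSO. Its log2 fold changes were 1.30 ± 0.053 (limma adjusted p = 3.29e-17), 0.64 ± 0.053, 0.61 ± 0.053 and, with Antimycin A, 0.38 ± 0.053, beside a rise of 0.15 with BerberineA that 12 of 18 alternatives ended.

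Atp6v1b2, the partner of Atp6v1a in the catalytic ring, rose in 7 compounds and fell in 1. Its libraries read 144, 138 and 144 TPM with Antimycin A, 135, 127 and 141 TPM with Cardamonin and 75.5, 75.3 and 76.7 TPM with AEG 3482. DMSO libraries held it from 82.0 to 106 TPM with a median of 92.4 TPM. Antimycin A and Cardamonin lay above and AEG 3482 below all DMSO libraries. The rises ran from 0.28 with BerberineA to 0.60 ± 0.052 with Antimycin A. It fell by 0.29 with AEG 3482 (SE 0.052, limma adjusted p = 2.78e-05), and all 8 calls held in every alternative. In AEG 3482 the 2 ring subunits went in opposite directions. Atp6v1c1, a stalk subunit, rose in 6 compounds, by 0.80 with Cardamonin and 0.42 with Antimycin A at the upper end, and had -0.046 with AEG 3482. Atp6v0d1, of the membrane sector, rose with Cardamonin (0.35), Podofilox (0.16) and Antimycin A (0.11, lost in 6 of 18 alternatives), and Atp6ap1, an accessory protein of pump assembly, rose in 5 compounds by 0.15 to 0.49. Over the pump, 29 of 35 calls held in every alternative, and the others were 0.18 or less in size.

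The genes of both transcription factors rose in AEG 3482. Tfeb (chromosome 17, 47737030 to 47792419) was the least abundant of the 42 genes in DMSO, where it ranged from 5.22 to 6.88 TPM with a median of 6.53 TPM. It read 10.4, 11.7 and 14.2 TPM in AEG 3482. All 3 libraries lay above DMSO, with a rise of 0.85 ± 0.12 (limma adjusted p = 8.39e-07) that held in every alternative. The Podofilox libraries read 5.62, 4.10 and 3.41 TPM and those of Antimycin A 5.24, 3.90 and 4.67 TPM, and in each group 1 library came within the DMSO range. Tfeb fell by 0.45 with Podofilox and by 0.38 with Antimycin A. These calls were lost without Podofilox replicate 3 in the first case, and without Antimycin A replicate 2 or under the replicate block in the second. With Cardamonin its value was -0.14, not called. Tfe3 (chromosome X, 7762560 to 7775202) rose with both AEG 3482 and Cardamonin. Its libraries held 80.8, 85.4 and 90.2 TPM in AEG 3482 and 78.8, 81.6 and 76.3 TPM in Cardamonin, and the DMSO range ran from 37.5 to 45.2 TPM with a median of 41.0 TPM. Neither group overlapped DMSO, and the rises were 1.05 ± 0.084 (limma adjusted p = 3.90e-11) and 0.94 ± 0.084 (adjusted p = 2.33e-10). A further rise of 0.26 with Podofilox was lost without Podofilox replicate 1 and under the replicate block, and the other 5 compounds lay between -0.088 and 0.074, none called.

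Of the 9 autophagy genes, 7 rose and 2 fell in AEG 3482, 6 rose and 2 fell in Cardamonin. There were 5 that rose and none fell in Podofilox, 5 rose and 1 fell in Antimycin A, and 3 or fewer rose in each other compound. The shares were 77.8% and 22.2% in AEG 3482, beside 41.3% and 26.8% of all genes tested. Cardamonin had 66.7% and 22.2%, beside 37.3% and 33%. The share higher was 55.6% in both Podofilox and Antimycin A, beside 26.2% and 21.8%. It was 0% in Dihydrorotenone, beside 4.95%, and 33.3% in Diphenyleneiodonium Cl and BerberineA, beside 14% and 12.6%. Clofilium tosylate had 22.2% higher, beside 10.9%. Sqstm1 (chromosome 11, 50199366 to 50210827), which encodes p62, a receptor that delivers ubiquitinated cargo to autophagosomes and is itself a target gene of the oxidative stress factor NRF2, had 1 of the 2 largest log2 fold changes of the 42, the other being that of Gla. DMSO libraries ranged from 823 to 987 TPM with a median of 898 TPM, and Cardamonin libraries stood at 3601, 3498 and 3819 TPM. Those of AEG 3482 read 1681, 1783 and 1832 TPM, of Antimycin A 1427, 1381 and 1364 TPM and of Podofilox 1336, 1269.9 and 1285 TPM. Each of these 4 groups lay above all DMSO libraries, and Cardamonin above all other libraries. The log2 fold changes were 2.01 ± 0.050 (limma adjusted p = 1.88e-21), 0.97 ± 0.050, 0.63 ± 0.050 and 0.53 ± 0.050. Further rises were 0.35 in Clofilium tosylate and 0.26 in Diphenyleneiodonium Cl, and all 6 calls held in every alternative. Dihydrorotenone (0.12) and BerberineA (0.077) were not called. Sqstm1 shares 16.4% of its 31-base stretches with other transcripts, most with Mrnip.

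Wipi1 (chromosome 11, 109573331 to 109611967), whose protein reads a phosphoinositide on the forming autophagosome, fell in 6 compounds and rose in 1. Its libraries read 68.3, 69.1 and 59.6 TPM with Cardamonin, 94.2, 79.0 and 93.1 TPM with Antimycin A and 150.2, 141 and 142 TPM with AEG 3482. DMSO libraries held it from 105 to 126 TPM with a median of 120.3 TPM. The first 2 groups lay below all DMSO libraries and AEG 3482 above them. Wipi1 fell by 0.84 with Cardamonin (SE 0.063, limma adjusted p = 7.31e-12), by 0.41 with Antimycin A and by 0.38 with Diphenyleneiodonium Cl. It fell by 0.32 with BerberineA, by 0.31 with Clofilium tosylate and by 0.23 with Dihydrorotenone. It rose by 0.29 ± 0.063 with AEG 3482 and had -0.024 with Podofilox. The Dihydrorotenone call was lost without Dihydrorotenone replicate 1 and when only those 2 groups were fitted, and the others held in every alternative.

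The genes of the ATG8 family, whose proteins are attached to autophagosome membranes, did not move as one. Gabarapl1 rose in 5 compounds, by 0.81 ± 0.036 with Cardamonin, 0.49 ± 0.036 with AEG 3482, 0.23 with Antimycin A, 0.19 with Podofilox and 0.10 with Diphenyleneiodonium Cl, the last lost in 12 of 18 alternatives. Its Cardamonin libraries read 431, 409.5 and 470.4 TPM and those of AEG 3482 342, 348 and 356 TPM, none of them within the DMSO range from 241 to 257 TPM with a median of 245 TPM. Map1lc3a read 71.0, 68.6 and 65.5 TPM in the Cardamonin libraries, all below DMSO, which ranged from 83.0 to 103 TPM with a median of 95.0 TPM. It fell by 0.45 with Cardamonin and rose by 0.28 with Podofilox. Its rises with BerberineA (0.17) and AEG 3482 (0.15) were lost in 13 and 8 of 18 alternatives, the second turning to -0.0098 under quantile normalization. Map1lc3b rose with Cardamonin (0.24), AEG 3482 (0.21) and Antimycin A (0.092, lost in 7 of 18). Gabarap fell by 0.23 with AEG 3482 and rose by 0.19 with Antimycin A and 0.10 with BerberineA, the last lost in 14 of 18. Gabarapl1 shares 25.2% of its 31-base stretches with other transcripts, most with 1700101I11Rik. Nbr1, another cargo receptor, rose by 0.44 with Cardamonin and 0.36 with Podofilox and fell by 0.18 with AEG 3482. Ulk1, the kinase that starts autophagy, rose in 6 compounds by 0.18 to 0.40, but only the calls with Podofilox and Diphenyleneiodonium Cl held in every alternative. Becn1, a subunit of the lipid kinase that nucleates the autophagosome, rose by 0.64 ± 0.060 with Cardamonin and by 0.21 and 0.16 with Antimycin A and AEG 3482. The 2 smaller calls were lost in 1 and 5 of 18 alternatives. Becn1 shares 40.0% of its 31-base stretches with other transcripts, most with Cntd1.

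**Figure D3:**
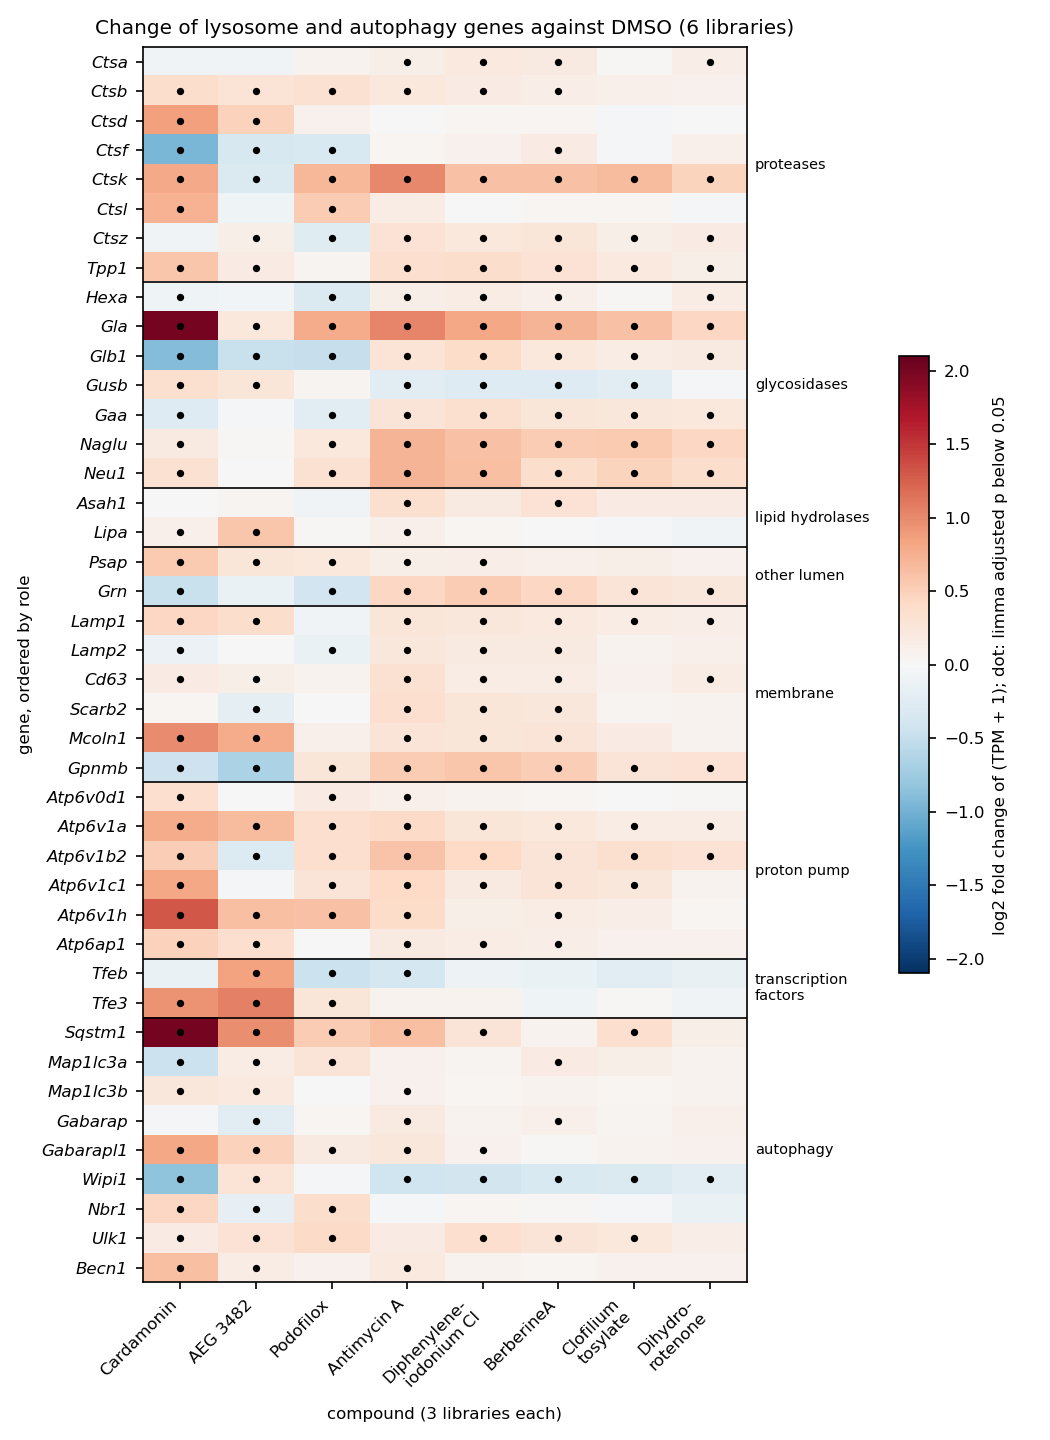
Log2 fold change of (TPM + 1) against DMSO for the 42 genes (rows, by role) in the 8 compounds (columns), red for higher, blue for lower, with a dot where the limma adjusted p was below 0.05. The deepest colours are Sqstm1 (2.01) and Gla (2.005) in Cardamonin, and in the 5 columns on the right Ctsk, Gla, Naglu, Neu1 and Gpnmb are red and Wipi1 is blue. Ctsk, Gla, Naglu and Neu1 were also called higher in Cardamonin and Podofilox, Gpnmb also in Podofilox, and Wipi1 was also called lower in Cardamonin.

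Differences between compounds were tested directly, in contrasts that leave out the DMSO libraries from the difference, and 4 of the 28 pairs of compounds are counted here. Cardamonin and AEG 3482, which both raised Mcoln1, Ctsd, Atp6v1h, Tfe3 and Sqstm1, differed in 31 of the 42 genes, 21 higher and 10 lower in Cardamonin, beside 55.3% of all genes tested that differed. Of these differences 24 of the 31 held in all 15 alternatives. The largest differences, Cardamonin minus AEG 3482, were those of Gla (1.78 ± 0.11, limma adjusted p = 1.21e-12), Ctsk (1.09 ± 0.092) and Sqstm1 (1.04 ± 0.058). On the other side stood Wipi1 (-1.13 ± 0.073, adjusted p = 1.72e-12) and Tfeb (-0.98 ± 0.14). The pump also differed, with Atp6v1c1 at 0.85 ± 0.058, Atp6v1b2 at 0.81 ± 0.060 and Atp6v1h at 0.66 ± 0.062, all higher in Cardamonin. Lipa (-0.47 ± 0.048), Glb1 (-0.44 ± 0.052) and Ctsf (-0.62 ± 0.053) were higher in AEG 3482. The difference in Tfe3 was -0.11 ± 0.10 and was not called (limma adjusted p = 0.342), which does not show that the 2 compounds acted alike on it. The smaller difference in Mcoln1, 0.22 ± 0.079, was lost without Cardamonin replicate 3.

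**Figure D4:**
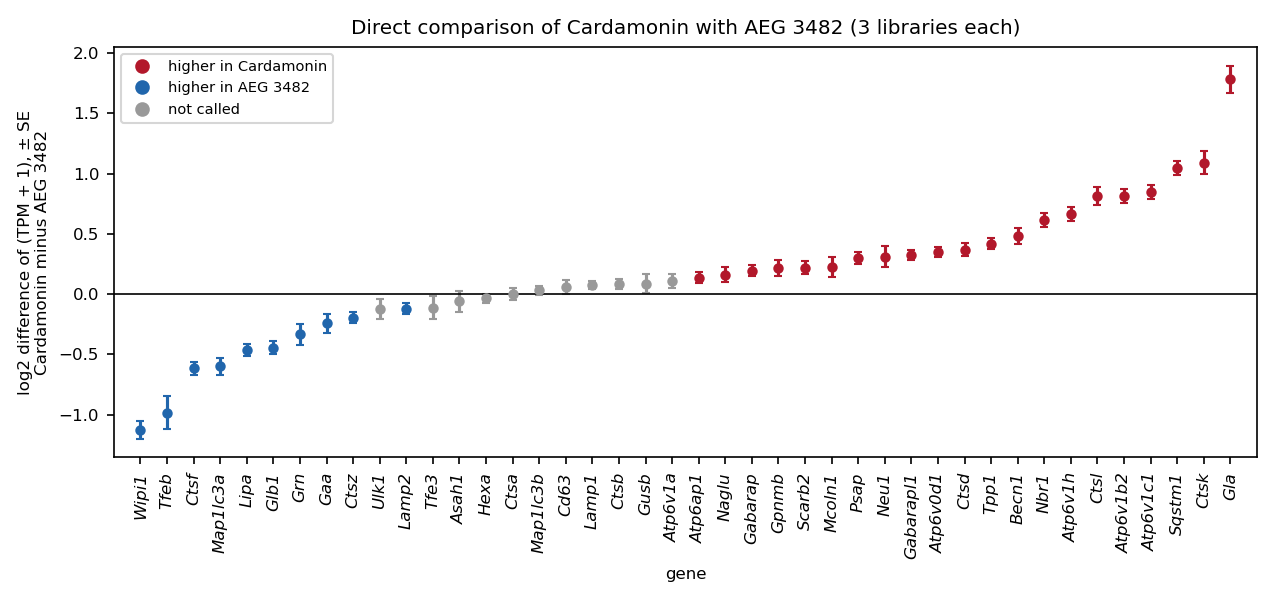
Difference in log2(TPM + 1) between Cardamonin and AEG 3482 (vertical axis, ± SE, 3 libraries each) for each of the 42 genes, ordered by size, with genes called higher in Cardamonin in red, higher in AEG 3482 in blue and not called in grey. The range runs from -1.13 for Wipi1 to 1.78 for Gla.

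Cardamonin and Podofilox differed in 28 of the 42 genes, 21 higher and 7 lower in Cardamonin, beside 57.8% of all genes, and 23 of the 28 held in all 15 alternatives. Sqstm1 (1.49 ± 0.058), Gla (1.23 ± 0.11), Mcoln1 (0.89 ± 0.079) and Ctsd (0.77 ± 0.052) were higher in Cardamonin, and Wipi1 (-0.82 ± 0.073), Map1lc3a (-0.73 ± 0.071) and Gpnmb (-0.70 ± 0.065) higher in Podofilox. Antimycin A and Dihydrorotenone, blockers of different complexes of the respiratory chain, differed in 17 of the 42, all higher in Antimycin A, beside 15.5% of all genes, and 12 of the 17 held in all 15 alternatives. Here the larger differences were Gla (0.60 ± 0.11, limma adjusted p = 5.06e-04), Ctsk (0.54 ± 0.092) and Sqstm1 (0.50 ± 0.058), and 4 pump genes differed by 0.25 to 0.34. Antimycin A and Clofilium tosylate differed in 12, again all higher in Antimycin A, beside 5.21% of all genes. That count was 4 without Antimycin A replicate 1, 6 to 8 without any other library of this pair, and 5 to 7 under 3 other scalings. Only 3 of the 12 held in all 15 alternatives. Since doses are not given in the sources used here, the size of a change does not rank the compounds.

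A wider list of 117 further lysosome and autophagy genes, of which 114 could be tested, gave 61 higher and 30 lower in Cardamonin, 55 higher and 29 lower in AEG 3482 and 42 higher and 26 lower in Podofilox. It gave 51 higher and 7 lower in Antimycin A, 45 higher and 4 lower with Diphenyleneiodonium Cl and 36 higher and 4 lower with BerberineA. With Clofilium tosylate there were 29 higher and 10 lower, and with Dihydrorotenone 21 higher and 4 lower. As shares of the 114, 53.5% were higher in Cardamonin, 48.2% in AEG 3482, 36.8% in Podofilox and 44.7% in Antimycin A, beside 37.3%, 41.3%, 26.2% and 21.8% of all genes. The shares lower were 26.3%, 25.4%, 22.8% and 6.14%, beside 33%, 26.8%, 20% and 15.5%, so that in AEG 3482 both shares lay near those of all genes. In Diphenyleneiodonium Cl 39.5% were higher and 3.51% lower, beside 14% and 11.7% of all genes. BerberineA had 31.6% and 3.51%, beside 12.6% and 9.16%. Clofilium tosylate had 25.4% and 8.77%, beside 10.9% and 12.5%, and Dihydrorotenone 18.4% and 3.51%, beside 4.95% and 9.43%. Of 13 further pump subunits, 12 higher and 0 lower were counted in Cardamonin and 10 higher and 1 lower in Podofilox. Of 33 further hydrolases and lumen proteins the counts were 10 higher and 17 lower in Cardamonin and 3 higher and 17 lower in Podofilox. As shares of the 33 these were 30.3% and 51.5% in Cardamonin, beside 37.3% and 33% of all genes. Podofilox had 9.09% and 51.5%, beside 26.2% and 20%. Antimycin A had 10 higher and 2 lower of the 13 pump subunits and 16 higher and 3 lower of the 33 hydrolases. Of 36 further autophagy genes, AEG 3482 had 22 higher and 8 lower, Cardamonin 21 higher and 8 lower and Antimycin A 8 higher and 2 lower. The 22.2% of these 36 higher in Antimycin A lay near the 21.8% of all genes. AEG 3482 and Cardamonin had 61.1% and 58.3% higher, beside 41.3% and 37.3%. Of the 13 pump subunits, 92.3% were higher in Cardamonin and 76.9% in both Podofilox and Antimycin A, beside 37.3%, 26.2% and 21.8%. Of the 33 hydrolases, 48.5% were higher in Antimycin A.

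The largest rise in that wider list was that of Rragd, a GTPase that recruits mTORC1 to lysosomes. Its mean ± SD was 2.13 ± 0.398 TPM over the 6 DMSO libraries, 14.4 ± 3.39 TPM over those of Cardamonin and 8.61 ± 2.08 TPM over those of Antimycin A. On the log2 scale the rises were 2.28 ± 0.13 (limma adjusted p = 1.60e-14) and 1.60 ± 0.13, and it also rose with BerberineA (1.18 ± 0.13) and Diphenyleneiodonium Cl (0.98 ± 0.13). Fnip2 encodes a partner of the folliculin complex that acts on the Rag GTPases. It rose from 35.3 ± 4.68 TPM to 123 ± 6.99 TPM with Cardamonin (1.79 ± 0.080) and 84.1 ± 5.48 TPM with Podofilox (1.24 ± 0.080). Atp6v0d2, a pump subunit with a restricted tissue distribution, was at 16.7 ± 3.29 TPM in DMSO. It rose by 1.53 ± 0.11 with Antimycin A, 1.29 ± 0.11 with Podofilox and 0.95 ± 0.11 with Clofilium tosylate. It also rose with Diphenyleneiodonium Cl (0.86 ± 0.11), BerberineA (0.74 ± 0.11) and Dihydrorotenone (0.73 ± 0.11). It fell by 1.06 with AEG 3482, where it was at 7.35 ± 0.384 TPM. Gm2a, the activator protein for ganglioside breakdown, fell by 1.65 with Cardamonin, from 85.6 ± 3.14 TPM to 26.7 ± 2.83 TPM, and Ids, an iduronate sulfatase gene, fell by 1.22. With Podofilox Ctso, a cathepsin gene, fell by 0.80 and Npc2, the gene of a cholesterol carrier of the lumen, fell by 0.62. In AEG 3482 the pump subunit Atp6v0a2 rose by 0.80 ± 0.059, Rptor, the subunit that defines mTORC1, rose by 0.80 ± 0.069, and Bnip3, a mitophagy receptor, fell by 0.88. Optn, another autophagy receptor, rose by 0.68 ± 0.062 with Clofilium tosylate and 0.50 ± 0.062 with Dihydrorotenone. Ctsh, the cathepsin H gene at 474 ± 19.97 TPM in DMSO, fell in all 8 compounds, from a log2 fold change of -0.16 with Podofilox to -0.71 with Cardamonin. Ctss, the cathepsin S gene, fell by 0.34 with Clofilium tosylate and by 0.31 with Diphenyleneiodonium Cl, beside the lower macrophage marker sums given above, whose part in this was not tested. Atg9a, a lipid scramblase of autophagosome growth, fell by 0.26 with BerberineA.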

How the data were processed

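RNA-seq of 30 libraries (9 groups) was taken as the deposited table of TPM values for 29861 genes, of which 29505 carry a symbol. The authors estimated these TPM values with kallisto 0.43.1, with FastQC and the mouse build mm10 also named, per the submitters' processing notes. TPM keeps no depth, so the depth of each library and the precision it gives are unknown. The series text names DESeq2 on counts, which were not used here, so no count model was run. The number of columns of no sample was 0.

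With limma 3.58.1 in R 4.3.3, log2(TPM + 1) was fitted with 9 group means over all 30 libraries, with an intensity trend in the empirical Bayes step, for the 13644 genes at 1 TPM or more in at least 3 libraries. P-values were two-sided, were adjusted by Benjamini-Hochberg over all these genes separately per comparison, and passed below 0.05, and the fit was tested on simulated data. A fold change on this scale understates the change of low genes. Alternatives were a pseudocount of 0.1, no filter, a mean of at least 5 TPM, median-ratio scaling, quantile normalization, rescaling without the 20 most abundant genes, no intensity trend, the 2 groups compared alone, the replicate number as a block, and each library left out.

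The members and lists were chosen with earlier results of these data known. Described with full values are the called genes with the largest changes in each compound (up to 6 higher and 4 lower) whose treated libraries all lie outside the DMSO range, and the rest by their values and ranges. Where these genes are said not to overlap DMSO, that was a condition of the choice and not a separate result. Of the 117 further genes, those named are the top 2 risers and top 2 fallers of each compound with a mean of 5 TPM or more in the higher group. Gene positions and shared 31-base stretches come from GENCODE M21 (GRCm38), and promoter windows from RefSeq (GRCm38.p6), in which 7 of the 42 genes had no window.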

Additional observations from a re-analysis of the deposited data

Results flagged for a closer look

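In the 6 DMSO libraries, 3 of the 42 genes had 1 library set apart from the other 5, judged by the gap to its nearest neighbour as a share of the whole range. Hexa had a share of 0.892, with DMSO replicate 5 at 438 TPM and the others from 453 TPM to 455 TPM. Atp6v1a had a share of 0.665, with DMSO replicate 4 at 136 TPM and the others from 115 TPM to 122 TPM. Naglu had a share of 0.632, with the same replicate 4 at 145 TPM and the others from 127 TPM to 134 TPM. Chance alone sets about 1 in 20 such groups apart, and 42 were examined.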

How the results depend on the processing

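The alternatives moved sizes more than directions. Of the 222 calls against DMSO, 161 held in all 18 alternatives, and 4 small ones changed sign, each under quantile normalization: Becn1 in AEG 3482 (-0.014), Ctsa in Antimycin A (-0.0042), Lamp2 in Cardamonin (0.0056) and Map1lc3a in AEG 3482 (-0.0098). Scaling moved the median log2 fold change of the 42 genes, and the cause was not tested. Under median-ratio scaling it was 0.029 in AEG 3482 (0.14 as reported), 0.15 in Dihydrorotenone (0.11), 0.16 in Diphenyleneiodonium Cl (0.18) and 0.063 in Podofilox (0.10). Under quantile normalization it was 0.047 in AEG 3482, 0.19 in Antimycin A (0.24), 0.26 in Cardamonin (0.33) and 0.14 in Diphenyleneiodonium Cl. Without the 20 most abundant genes it was 0.061 in AEG 3482, 0.20 in Antimycin A and 0.15 in Diphenyleneiodonium Cl. The number lower in AEG 3482 was 15, 13 and 13 under these 3 settings (8 as reported), the number lower in Dihydrorotenone was 2 without the 20 most abundant genes, and the number that differed between Antimycin A and Clofilium tosylate was 5, 5 and 7 (12 as reported). With only the 2 groups compared in the fit, which leaves fewer samples, Dihydrorotenone had 10 higher and 0 lower and the Antimycin A and Clofilium tosylate difference 7. Leaving out 1 library at a time gave medians from 0.11 to 0.16 in AEG 3482, 0.29 to 0.35 in Cardamonin, 0.16 to 0.19 in Diphenyleneiodonium Cl and 0.078 to 0.11 in Podofilox, and counts from 9 to 16 higher and 0 to 2 lower in Dihydrorotenone, 1 to 3 lower in Antimycin A, 1 to 2 lower in Clofilium tosylate and 4 to 8 different between Antimycin A and Clofilium tosylate. Replicate numbers paired the libraries weakly at most. The deviations of same-numbered libraries correlated from -0.055 to 0.12, and 2 of 24 pairs passed 0.1. That cut-off was not set against a chance level, so weak pairing is not excluded. With the replicate block, 13 were higher in Dihydrorotenone and 16 differed between Antimycin A and Clofilium tosylate, and no count moved by more than 1.5 times. Depth is unknown from TPM, so counting error could not be separated from the spread between libraries.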
